A study of Mus musculus with 12 samples.

Results

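The serum amyloid A genes Saa1, Saa2 and Saa3, the protease inhibitor gene Slpi, S100a8 and S100a9, Lcn2, Hp, Orm1 and Ltf encode proteins of the acute-phase response and of neutrophils. These 10 genes were followed on 12 arrays of adipose tissue, which carried 20660 genes with a symbol. All probes whose RefSeq accession matched one of the 10 symbols were taken, which gave 1 probe for each gene. Saa3, Slpi and S100a8 were chosen by their measured difference on these arrays, as their signal was far lower in subcutaneous white adipose tissue (scWAT) of Lr11-/- mice, and the other genes were added around them. The genotype difference in scWAT therefore chose the genes, and it is given here as a description without a test.

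RNA came from scWAT and brown adipose tissue (BAT) of male mice on the C57Bl6/J strain, with 3 arrays in each of the 4 groups that genotype (WT or Lr11-/-) and tissue form. All mice, controls included, were aged 12 weeks and had a high-fat diet (HFD) with 60% of calories from fat. The labels give both 4 weeks of this diet and feeding since weaning, so its length is unsettled. Lr11-/- mice lack the receptor LR11, encoded by Sorl1, and were set against WT littermates. The labels describe no tissue-restricted deletion, so the arrays cannot separate loss of LR11 in fat from its loss elsewhere, and although the submitters give 3 samples a group, no single animal is named, so the spread between arrays may be partly technical.

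The acute-phase response is the change in secreted proteins that follows infection or tissue injury. Cytokines such as interleukin-6 and interleukin-1 act on liver and other cells through the transcription factors STAT3, C/EBP and NF-kB, and serum amyloid A, haptoglobin (Hp) and orosomucoid (Orm1) are released. In mice Saa3 is made largely outside the liver, adipose tissue and macrophages included. S100a8 and S100a9 form calprotectin, an abundant protein pair of the neutrophil cytoplasm, while lactoferrin (Ltf) and lipocalin 2 (Lcn2) are stored in neutrophil granules and bind iron or iron carriers. Slpi blocks neutrophil elastase. Several of these proteins are also made by epithelia.

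Saa1, Saa2 and Saa3 lie in a cluster on mouse chromosome 7, and S100a8 and S100a9 are neighbours on chromosome 3. The promoters of the 5 genes whose Lr11-/- scWAT arrays were all below the WT scWAT arrays are shown so that their shared letters can be read beside the values. Each runs from 250 bases before to 50 bases after the start in RefSeq, assembly GRCm38.p6, and is written 5′ to 3′ on the strand of its gene. Capitals mark a C/EBP-like match, TTGCNNAA on either strand. The regions are chr7:46742931-46743230 (minus strand) for Saa1, chr7:46751583-46751882 (plus strand) for Saa2, chr7:46715627-46715926 (minus strand) for Saa3, chr2:164356458-164356757 (minus strand) for Slpi and chr3:90668821-90669120 (plus strand) for S100a8.
Saa1: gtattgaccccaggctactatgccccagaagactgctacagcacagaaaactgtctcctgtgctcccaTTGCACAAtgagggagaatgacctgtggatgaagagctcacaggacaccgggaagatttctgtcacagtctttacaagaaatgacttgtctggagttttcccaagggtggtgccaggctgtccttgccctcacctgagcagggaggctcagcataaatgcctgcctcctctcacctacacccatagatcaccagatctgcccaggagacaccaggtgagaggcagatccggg
Saa2: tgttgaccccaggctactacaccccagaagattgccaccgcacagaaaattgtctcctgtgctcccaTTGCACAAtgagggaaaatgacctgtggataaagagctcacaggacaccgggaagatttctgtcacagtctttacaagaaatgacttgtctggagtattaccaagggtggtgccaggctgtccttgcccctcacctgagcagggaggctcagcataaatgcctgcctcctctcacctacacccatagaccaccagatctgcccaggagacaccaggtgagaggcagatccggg
Saa3: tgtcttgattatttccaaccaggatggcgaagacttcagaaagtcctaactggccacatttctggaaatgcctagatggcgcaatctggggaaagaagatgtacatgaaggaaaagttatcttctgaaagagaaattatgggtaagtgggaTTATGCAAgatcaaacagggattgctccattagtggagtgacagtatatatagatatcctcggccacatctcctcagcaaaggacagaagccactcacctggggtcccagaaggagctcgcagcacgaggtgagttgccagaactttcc
Slpi: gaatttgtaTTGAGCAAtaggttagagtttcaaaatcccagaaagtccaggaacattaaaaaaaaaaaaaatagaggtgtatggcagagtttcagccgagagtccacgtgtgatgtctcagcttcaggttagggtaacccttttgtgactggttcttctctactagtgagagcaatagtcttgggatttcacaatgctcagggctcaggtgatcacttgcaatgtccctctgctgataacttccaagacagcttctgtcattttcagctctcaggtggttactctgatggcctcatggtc
S100a8: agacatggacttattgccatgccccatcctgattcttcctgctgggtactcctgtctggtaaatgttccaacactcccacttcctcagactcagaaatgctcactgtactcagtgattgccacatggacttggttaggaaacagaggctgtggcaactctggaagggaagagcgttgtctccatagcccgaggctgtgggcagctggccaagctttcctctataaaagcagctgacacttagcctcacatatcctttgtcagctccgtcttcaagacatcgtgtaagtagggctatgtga

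The Saa1 and Saa2 promoters were identical at 287 of 301 aligned positions (95.3%), and Saa1 and Saa3 at 180 of 333 (54.1%). Promoters were at hand for 8 of the 10 genes, all but Hp and Orm1. The C/EBP-like match was found in 7 of these 8, those of Saa1, Saa2, Saa3, Slpi, S100a9, Lcn2 and Ltf, against 10.8% of the 32851 promoters in the table. The form of this motif was settled after the Saa promoters had been seen, so the count is a description. The STAT-like motif TTCNNNGAA was found in 0 of the 8, against 8.3% of all promoters, and the NF-kB consensus in 0, against 4.51%. A looser NF-kB form, which fixes only the run of G at its start and the pair of C at its end, was found in 4 of the 8, against 50.8%, and TATAAA in 2, against 13.6%. All motifs were searched on both strands. The C/EBP-like match was present both in genes that were lower in Lr11-/- scWAT and in Lcn2 and Ltf, which were not, and S100a8 had none within this window.

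**Figure D1:**
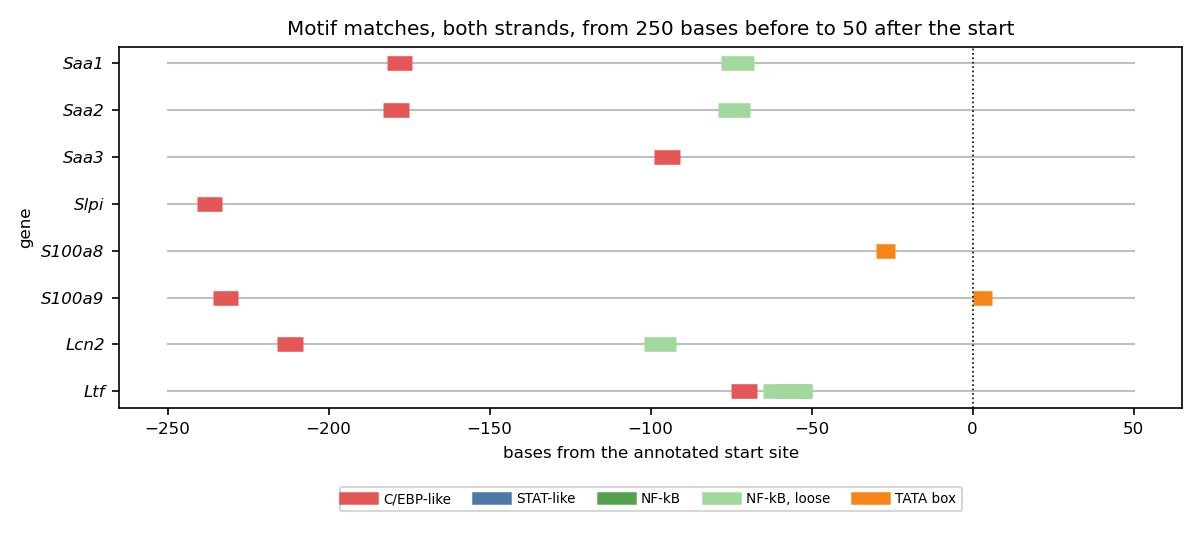
Motif matches in 8 promoters, by gene (vertical axis) and distance in bases from the annotated start site (horizontal axis). Each block is 1 match on either strand, and 7 of the 8 promoters hold a C/EBP-like block, while S100a8 does not.

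A level is the log2 intensity of a probe minus the 75th percentile of its array, with 0 at the percentile itself, and levels of different genes cannot be set against each other. The scanner software placed 32377 to 37002 spots of each array well above background, with 0 saturated. Sorl1 was between 0.11 and 1.21 on the 6 WT arrays and between -3.93 and -2.45 on the 6 Lr11-/- arrays, so every array matched its genotype. Whether this probe lies in the deleted stretch is not given in the sources used here. Replicate numbers follow accession order and only name the arrays. Replicate 1 of each group belonged to a first array series and replicates 2 and 3 to a second.

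Some scWAT arrays stood apart in their cell type markers, and their part in the results was not tested. WT scWAT replicate 2 had the lowest summed level of white adipocyte markers, 8.6 against 9.9 to 11.2 on the other arrays, and the highest of macrophage and monocyte markers, 7.5 against 4.1 to 6.0. WT scWAT replicate 3 had the highest mesothelial level (5.3, against at most 0.1) with all 8 markers well above background. Lr11-/- scWAT replicate 1 had the highest epithelial level (5.9, against 3.5 on WT scWAT replicate 3 and at most 0.1 elsewhere). Both were high in skeletal muscle markers (11.3 and 11.4), as were 3 BAT arrays, at 9.0 to 9.9, while the other 7 arrays were at 2.2 or less. Lr11-/- scWAT replicates 2 and 3 had a summed level of brown adipocyte markers like that of BAT, 10.9 and 11.1 against 10.5 to 11.1. Ucp1 and Cidea carried most of this sum. Dio2 (4.90 and 4.29) lay within the BAT range (1.67 to 5.14) and Elovl3 (5.09 and 5.02) above it (-0.69 to 3.89). Over 32095 probes these 2 arrays correlated with BAT arrays at 0.96 to 0.98 and with Lr11-/- scWAT replicate 1 at 0.93 and 0.92. Zic1, a transcription factor gene of classical BAT, was lower on both (-3.79 and -3.00) than on any BAT array (-0.71 to 1.49). Lhx8, another gene of that marker list, was also lower on both (-3.00 and -3.25) than on any BAT array (-1.87 to -0.28). On the WT scWAT arrays Zic1 was at -6.86, 0.76 and 0.46 and Lhx8 at 2.81, -0.48 and -0.005, so neither separated the tissues here. Because tissue pieces were measured whole, fewer cells of a type and less RNA per cell cannot be told apart.

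**Figure D2:**
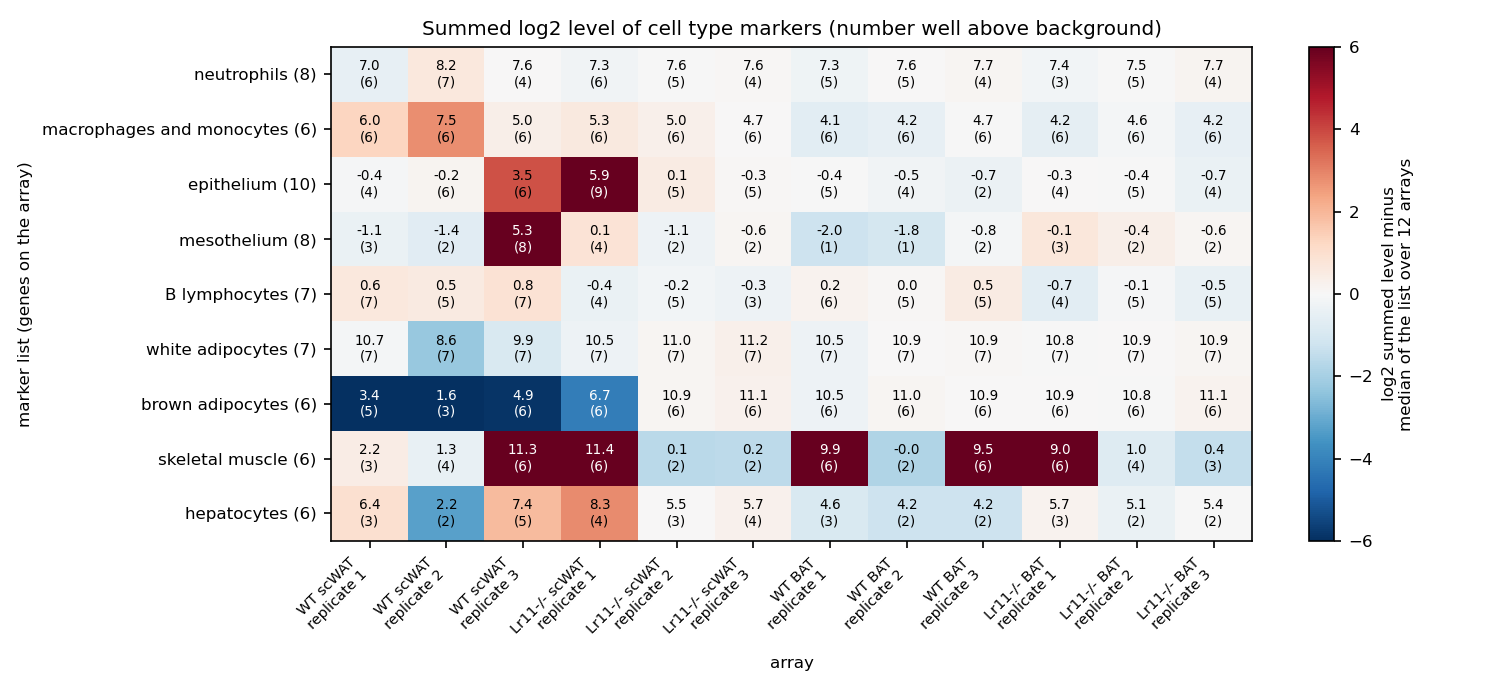
Log2 summed level of 9 cell type marker lists (rows) on the 12 arrays (columns), with the number of markers well above background in brackets and the colour showing the difference from the list's median over the arrays. WT scWAT replicate 2 is lowest for white adipocyte markers (8.6), and Lr11-/- scWAT replicates 2 and 3 have brown adipocyte markers at 10.9 and 11.1, in the range of BAT.

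In scWAT the mean level of 7 of the 10 genes was lower in Lr11-/- than in WT, and for 5 of them (Saa1, Saa2, Saa3, Slpi and S100a8) all Lr11-/- arrays were below all WT arrays. Of all probes tested 8.75% were lower without overlap, and nothing is read from the count, as this contrast chose the genes. S100a9 and Hp were lower on average with overlap, and Lcn2, Orm1 and Ltf were not lower. A lower level without overlap thus held for the serum amyloid A genes, Slpi and S100a8, and not for the whole set. The highest of all 12 arrays was WT scWAT replicate 2 for 8 of the 10 genes, all but Orm1 and Ltf. That array was the highest for 24.5% of the 32095 probes measured on every array.

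Saa3 was at 3.75, 8.29 and 2.05 on the 3 WT scWAT arrays and at -2.85, -0.83 and -3.64 on the Lr11-/- scWAT arrays. The lowest WT array was thus above the highest Lr11-/- array, although the WT arrays themselves spread over a wide range. The means were 4.70 ± 3.23 and -2.44 ± 1.45 (SD, n = 3 each), a log2 fold change of -7.14 or 141-fold. Without WT scWAT replicate 2 the log2 fold change was -5.34, and with Lr11-/- scWAT replicate 1 as the only Lr11-/- array it was -7.55. It was -6.60 within the first array series and -7.41 within the second.

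Saa1, a serum amyloid A that rises in plasma, was at 2.73, 6.99 and 1.43 in WT scWAT and at -0.04, 0.41 and 0.50 in Lr11-/- scWAT. The Lr11-/- arrays lay within the range that spanned both BAT groups (0.30 to 0.66) or just under it, and the WT arrays were all higher. Its log2 fold change was -3.43, and -1.79 without WT scWAT replicate 2. Saa2, its close copy, was at -3.67, 0.35 and -4.38 in WT scWAT and was well above background on 0 of 3 Lr11-/- arrays, which made it at least 4.00-fold lower, or at least 1.46-fold without WT scWAT replicate 2. Saa2 passed the filter on dim probes only through WT scWAT, and with another background correction (normexp, chosen after the data were seen) its log2 fold change was -1.16. As both genes are near-identical and older tables swap their names, how their probes divide the transcripts is uncertain.

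Slpi was at -0.53, 6.16 and 5.59 in WT scWAT and at -0.68, -2.23 and -3.30 in Lr11-/- scWAT. The groups did not overlap, but WT replicate 1 was only just above Lr11-/- replicate 1. The log2 fold change was -5.81 or 56.1-fold over all arrays. It was -0.15 within the first array series, which holds only replicate 1 of each group, and -8.64 within the second. The difference thus lay in the second series, where WT replicates 2 and 3 were highest for macrophage and for mesothelial markers. The array series and the make-up of the tissue pieces cannot be told apart here.

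S100a8 was at 3.67, 5.89 and 1.35 in WT scWAT and at 0.21, -1.46 and -2.41 in Lr11-/- scWAT. All WT arrays were higher than all Lr11-/- arrays, with a log2 fold change of -4.86 or 29.0-fold, and -3.73 without WT scWAT replicate 2. Its partner S100a9 was at 1.42, 7.43 and -0.94 in WT scWAT and at 2.08, -1.78 and -2.14 in Lr11-/- scWAT. Lr11-/- replicate 1 was above 2 of the 3 WT arrays here, while for S100a8 it was below all 3. For both transcripts it was the highest of the Lr11-/- scWAT arrays. The S100a9 log2 fold change of -3.25 became -0.85 without WT scWAT replicate 2 and was 0.66 within the first array series and -5.20 within the second.

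Lcn2 was at -0.38, 4.17 and -0.09 in WT scWAT and at 2.48, 1.16 and 0.31 in Lr11-/- scWAT. Apart from WT replicate 2, the Lr11-/- arrays were the higher ones. The log2 fold change was 0.08 with all arrays and 1.55 without WT scWAT replicate 2. Ltf was not well above background on any WT scWAT array (-7.14, -5.50 and -6.98) or BAT array, but reached 1.90 on Lr11-/- scWAT replicate 1, with -4.13 and -5.94 on the other two. It was at least 4.28-fold higher in Lr11-/- scWAT, a value that rests on that 1 array, and it was left out of the tests. The same array was the highest of all 12 for the epithelial keratin gene Krt8 (2.19, against at most -0.88).

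Hp, the haemoglobin-binding haptoglobin, was at 9.33, 9.56 and 7.04 in WT scWAT and at 6.48, 8.82 and 8.61 in Lr11-/- scWAT, and the groups overlapped. Both low values came from the arrays with high muscle and epithelial or mesothelial markers. The log2 fold change was -0.67, and it was -2.85 within the first array series and 0.42 within the second. Orm1, orosomucoid, was at 4.30, -1.50 and 0.68 in WT scWAT and at 2.09, 3.76 and 3.75 in Lr11-/- scWAT. WT replicate 2, which was highest for most of the other genes, was the lowest of all arrays here. The log2 fold change was 2.04, with -2.20 within the first array series and 4.16 within the second. Its close copy Orm2 ran from -1.45 to 4.24 in WT scWAT, and their probes may share transcripts.

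**Figure D3:**
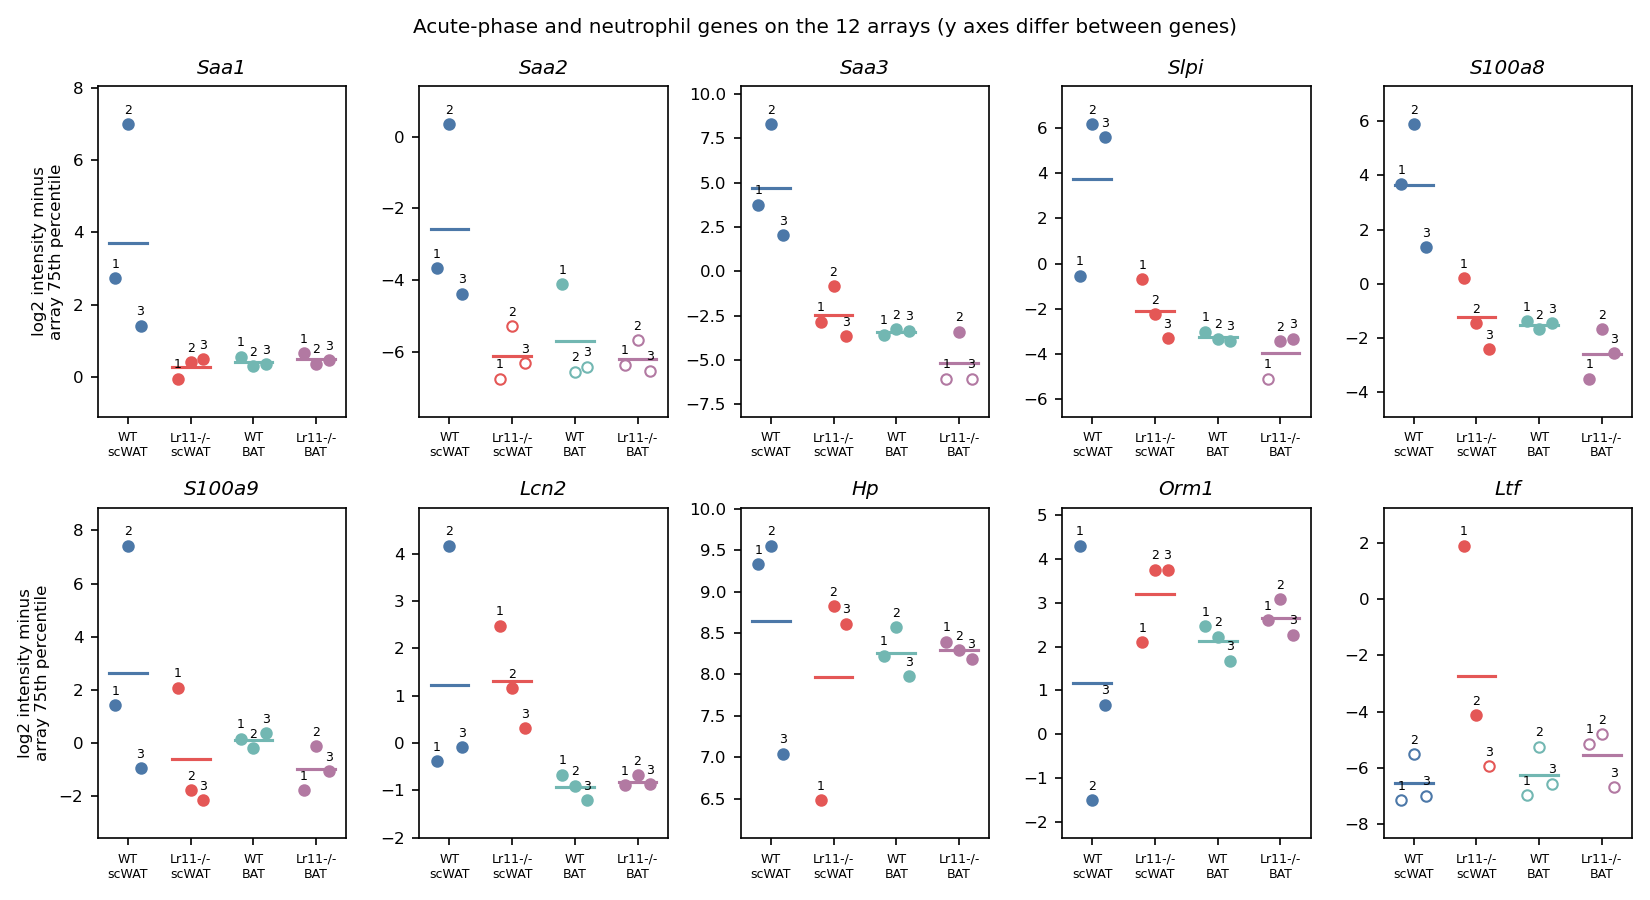
Level (log2 intensity minus the 75th percentile of the array, vertical axis) of each of the 10 genes in the 4 groups, with 1 point per array, the replicate number above it, a line at the group mean and open points where the probe was not well above background. WT scWAT replicate 2 is the top point for 8 genes, and Saa3 falls from 2.05 or more in WT scWAT to -0.83 or less in Lr11-/- scWAT.

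BAT was not used to choose the genes, so the genotype difference was tested there with limma over all 32121 tested probes. None of the 9 tested genes was called at a Benjamini-Hochberg adjusted p under 0.05 (0 of 9, against 0.0187% of all tested probes), and 0 of 9 had an unadjusted p under 0.05, against 2.12%. The groups overlapped for all 9, while of all probes 4.65% were lower and 7.4% higher in Lr11-/- BAT without overlap. Mean levels were lower in Lr11-/- BAT for 5 genes and higher for 4.

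In BAT Saa3 was at -3.57, -3.26 and -3.35 in WT and at -6.05, -3.40 and -6.05 in Lr11-/-, where only replicate 2 was well above background. That replicate lay between the WT arrays. The log2 fold change was -1.77 (SE 1.38, 95% confidence interval -4.81 to 1.27). S100a8 was at -1.36, -1.67 and -1.46 in WT BAT and at -3.49, -1.66 and -2.56 in Lr11-/- BAT, a log2 fold change of -1.07 (95% confidence interval -3.28 to 1.14). S100a9 had a log2 fold change of -1.10 (95% confidence interval -5.02 to 2.82) and Slpi one of -0.70 (95% confidence interval -3.90 to 2.50). These intervals use a spread shared by all 4 groups, scWAT included. Fitted on the 6 BAT arrays alone, the SE was 0.70 for Saa3, 0.43 for S100a8, 0.41 for S100a9 and 0.47 for Slpi. In that fit Saa3, S100a8 and S100a9 had an unadjusted p under 0.05 (3 of 9 genes, against 7.09% of all probes), and 0 of 9 were called by limma (lowest adjusted p = 0.64). Nothing is read from this count, as the genes share the same arrays and Saa3 was dim in Lr11-/- BAT. With the normexp background the log2 fold changes in BAT were -0.28 for Saa3, -0.52 for S100a8 and -0.90 for S100a9. Within the first and second array series the log2 fold changes in BAT were -2.48 and -1.42 for Saa3, -2.13 and -0.55 for S100a8, and -2.07 and -0.01 for Slpi.

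The other genes were closer to 0 in BAT. The log2 fold change was 0.09 for Saa1 (95% confidence interval -2.23 to 2.41), -0.49 for Saa2, 0.11 for Lcn2, 0.53 for Orm1 and 0.03 for Hp (95% confidence interval -1.51 to 1.58). Saa2 was well above background on 1 of the 6 BAT arrays. Between tissues, the mean level of Saa3 in BAT minus that in scWAT was -8.09 in WT and -2.73 in Lr11-/- on the log2 scale. Slpi differed by -6.98 in WT and -1.87 in Lr11-/-, and S100a8 by -5.14 and -1.35. The WT values include WT scWAT replicate 2, the highest array for these genes. In Lr11-/- BAT Saa3 was well above background on 1 of 3 arrays and Slpi on 2, so their Lr11-/- values are not exact.

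**Figure D4:**
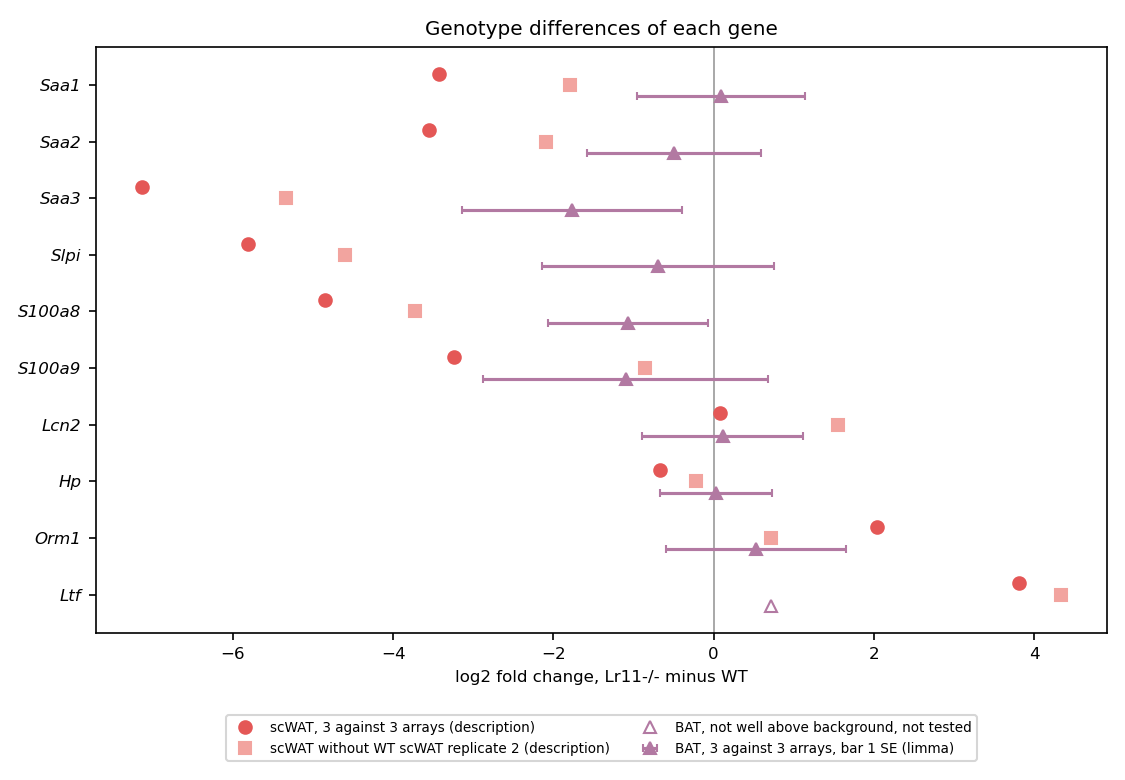
Log2 fold change, Lr11-/- minus WT (horizontal axis), of the 10 genes (vertical axis) in scWAT with all arrays (circles), in scWAT without WT scWAT replicate 2 (squares) and in BAT (triangles, bars 1 SE from limma; the open triangle was not tested). Saa3 moves from -7.14 to -5.34 and S100a9 from -3.25 to -0.85 when that array is left out, and the BAT values lie between -1.77 and 0.71.

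Across the 12 arrays some of the genes varied together, which is described here without a test since all share the same arrays. Saa3 and S100a8 had a Pearson correlation of 0.96, and 0.92 without WT scWAT replicate 2. Saa1 and S100a9 had 0.84, but 0.19 without that array, and Hp and Orm1 went from 0.08 to 0.76. Lcn2 and Ltf went from 0.50 to 0.82. The genes outside the set with the pattern most like Saa3 were Nup93 (0.98), Fignl1, Grb2, Adcy7 and Arrdc4 (0.97 to 0.98). Those most like Slpi were Angptl7 (0.98), Panx1, Agap1, Tshz3 and Ctla2a (0.97 to 0.98), and those most like S100a8 were Cdc42se2, B4galt6, Rab3il1, 2410002F23Rik and Rell1, all at 0.98. Without WT scWAT replicate 2 they were at 0.94 to 0.98 for Saa3, 0.94 to 0.97 for Slpi and 0.95 to 0.98 for S100a8. All were picked as the highest among the tested genes with a symbol, so their high values are a description.

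Other genes of the pathway were read from 5 lists, of which 93 genes were tested. In scWAT 11 of them were called by limma at an adjusted p under 0.05 (11.8%, against 5.27% of all probes, of which 3.4% were higher and 1.87% lower). The lists were chosen with earlier results of these data known, so nothing is read from this share. Of all probes 8.75% were lower and 11.7% higher without overlap. All 11 list genes had groups without overlap and the same direction in both array series. The same arrays gave these 11 calls, so both counts are a description. With 1 scWAT array left out, 22, 2 and 24 were called when it was WT replicate 1, 2 and 3, against 13.7%, 0.691% and 14.4% of all probes. They were 23, 1 and 0 when it was Lr11-/- replicate 1, 2 and 3, against 19.8%, 0.0872% and 0.00934%. The count was 1 or 2 without any single BAT array (0.451% to 0.545% of all probes), and 0 both when only the scWAT arrays were fitted (0%) and without both Lr11-/- scWAT arrays that had brown adipocyte markers at the level of BAT (0.134%).

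Acute-phase proteins gave 6 of these calls among 20 tested genes, with 5 lower and 1 higher, and a median log2 fold change of -0.84. Some uncalled genes of this list passed the filter only through WT scWAT, so nothing is read from the median. Serpina3n and Serpina3m encode relatives of antichymotrypsin and fell by 3.52 and 3.38 on the log2 scale (adjusted p = 0.047 and 0.012). Lbp, which carries bacterial lipopolysaccharide, was at 5.28, 3.07 and 1.83 in WT and 0.37, -0.32 and -0.06 in Lr11-/- scWAT (log2 fold change -3.40, adjusted p = 0.040). Unlike the serum amyloid A genes, Serpina3n, Serpina3m, Lbp and complement factor gene Cfb were highest on WT scWAT replicate 1. Cfb (log2 fold change -2.31) and the riser Orm3 (3.15) were named after their values were seen. Of the 11 calls only Serpina3m and S100a4 held without WT scWAT replicate 2. Serpina3n was not called with median scaling, no scaling or array weights (limma adjusted p = 0.0565, 0.06 and 0.0596). Cfb was not called with median scaling or no scaling (limma adjusted p = 0.0564 and 0.0604).

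Among other neutrophil genes 0 of 18 were called by limma in scWAT. Pglyrp1, a peptidoglycan-binding granule protein gene, had a log2 fold change of -1.42 (limma adjusted p = 0.061), and Stfa2l1, a stefin, was at least 6.10-fold lower (limma adjusted p = 0.082), or at least 1.47-fold without WT scWAT replicate 2. Stfa2l1 was well above background on 0 of 3 Lr11-/- scWAT arrays. Both Pglyrp1 and Stfa2l1 passed the filter only through WT scWAT, so nothing is read from their direction. Some other genes of this list also passed only through WT scWAT, so nothing is read from its median or from the count below. The median was -1.30, and -0.28 without WT scWAT replicate 2. On that replicate 14 of the 18 genes were highest of all arrays, against 24.5% of the 32095 probes measured on every array. Cxcr2, the chemokine receptor of neutrophils, was at 0.47 there and at -4.12 or less on all other arrays. Of the 9 neutrophil markers 8 were on the array, with summed levels of 8.2 on that replicate and 7.0 to 7.7 elsewhere, carried mainly by Csf3r, which was bright on every array. Ngp, a defining granule gene, was not well above background on any WT or Lr11-/- scWAT array.

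Of the inducing cytokines, their receptors and transcription factors, 1 of 29 was called. Il1rap, the shared subunit of the interleukin-1 receptor, was well above background on all 3 WT scWAT arrays and on no other array, and was at least 3.33-fold lower in Lr11-/- scWAT (adjusted p = 0.042). That bound was 1.93-fold without WT scWAT replicate 2, and the gene was not called with the normexp background (log2 fold change -0.74, adjusted p = 0.18). It passed the filter only through WT scWAT, so nothing is read from its direction. In this list 21 of 29 genes were highest on WT scWAT replicate 2, against 24.5% of the 32095 probes measured on every array. Some of these genes besides Il1rap also passed the filter only through WT scWAT, so nothing is read from the count. Il1b, which encodes interleukin-1 beta, was at 4.06 on that replicate and at -1.85 or less on every other array. Of the receptors and binding partners 0 of 11 were called by limma, and Tlr4, a receptor proposed for S100a8 and S100a9, had a log2 fold change of -0.78 (limma adjusted p = 0.083).

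Other S100 and WAP domain genes went both ways, with 2 higher and 2 lower of 15. S100a4 (log2 fold change -3.02, adjusted p = 0.035) and S100a6 (-1.79, adjusted p = 0.044) fell. S100b (4.62, adjusted p = 0.045) and S100a1 (2.10, adjusted p = 0.037) rose. S100b was at 5.53 and 6.12 on Lr11-/- scWAT replicates 2 and 3, close to the BAT arrays, and at 1.40 on replicate 1. With the array series as a block S100b had an adjusted p of 0.051 in limma, and with the slide as a block S100b, S100a6 and Il1rap had 0.060, 0.064 and 0.063. In BAT 0 of the 93 genes were called by limma, against 0.0187% of all probes, and 0 had an unadjusted p under 0.05, against 2.12%. The spread in this fit was shared with the scWAT arrays, so a difference within BAT was not excluded. For the scWAT difference minus the BAT difference, limma called 0 of the 93 genes and 0 of all 32121 probes. A genotype effect that differs between the tissues was therefore not shown for these genes.

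**Figure D5:**
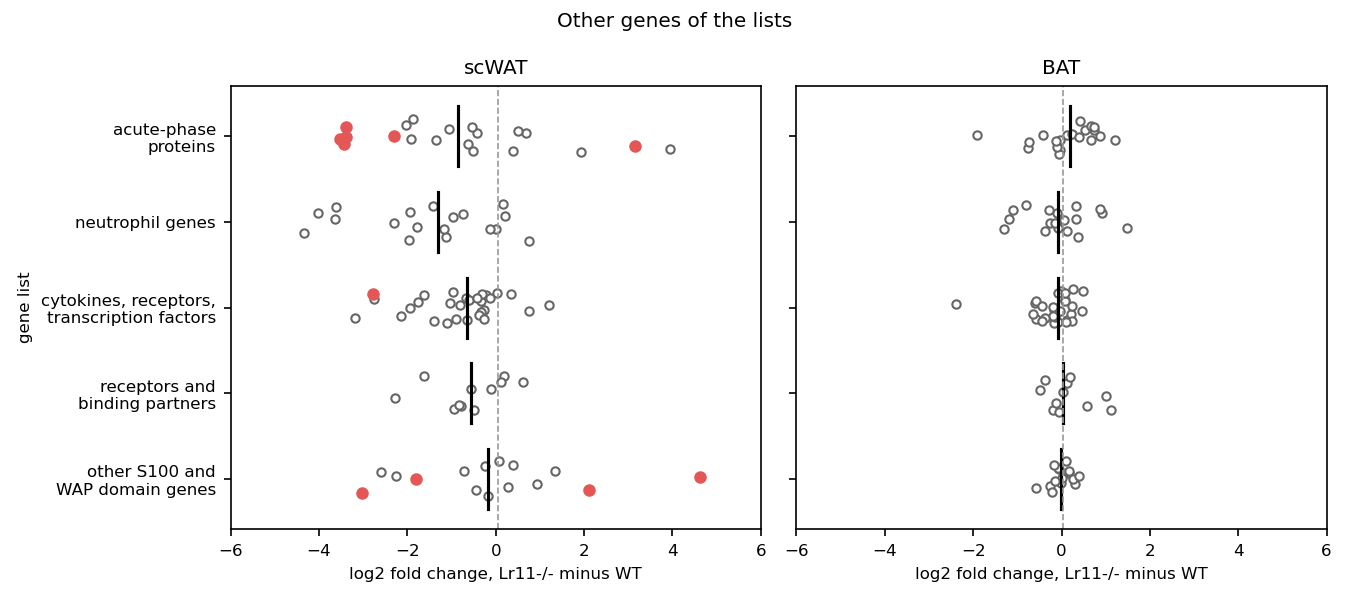
Log2 fold change, Lr11-/- minus WT (horizontal axis), of the 93 other tested genes by list (vertical axis) in scWAT and BAT, with filled points past an adjusted p of 0.05, a bar at each list's median and a dashed line at the median of all tested probes. The 11 filled points are all in scWAT, 8 of them below 0, and 0 of the 93 genes were called for the scWAT difference minus the BAT difference.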

How the data were processed

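RNA of 12 adipose tissue samples was labelled with cyanine-3 and hybridised to Agilent mouse arrays, 1 sample per array. The authors deposited the processed intensity of each spot from Feature Extraction 10.10 (submitters' processing notes), background-subtracted within each array and not scaled between arrays. Groups came from the source labels. Outlier spots (128 to 181 per array) were left out, spots of a probe were averaged after log2, and the array's 75th percentile (374 to 632) was subtracted. A probe was tested if at least 1 group had it well above background on each of its 3 arrays (32121 of 55681), and 27235 probes had a symbol through RefSeq accessions in a GRCm38.p6 gene table. The array was designed on another assembly, so only promoters carry coordinates.

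Tests used limma 3.58.1 in R 4.3.3 (lmFit and eBayes, 1 mean per group over all 12 arrays, Benjamini-Hochberg over all tested probes, threshold 0.05) and were tested on simulated data. Promoters were searched in Python 3.11.15 and aligned with Biopython 1.88. Of other list genes, those named had the largest called changes, up to 4 per list and tissue, or else the smallest p. A gene was read from its brightest tested probe. The values of 1 called list gene are not reported here. The members and lists were chosen with earlier results of these data known. The letters of the C/EBP-like motif were settled after the Saa promoters had been seen, the stricter NF-kB form replaced a looser planned one (both are given), and TATAAA was added last. Bounds raise the arrays of the dimmer group to at least the lowest signal well above background on each, while the brighter group keeps its measured mean. Alternatives covered scaling, background, filter, outliers, batch, weights, variance model, samples and threshold. The number of arrays limits the precision.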

Additional observations from a re-analysis of the deposited data

How the results depend on the processing

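With each alternative 0 members and 0 other list genes were called in BAT. The median log2 fold change of the tested members in BAT, -0.49, is the value of Saa2, which was well above background on 1 of the 6 BAT arrays. It was 0.062 with a filter on all 12 arrays, which leaves out Saa2, Saa3 and Slpi, 0.015 with normexp on median signals (chosen after the data were seen) and -0.015 in the second array series alone, and ran from -0.78 to 0.018 with each array left out. In scWAT the median, -3.43, ran from -4.57 to -1.79 with each array left out. The 11 other list genes called in scWAT became 1 with no filter, 0 with only the 6 arrays of the tissue, 30 in the second array series alone, 19 with array weights and 23 at an adjusted p under 0.1. They were 9 with median scaling and 8 with no scaling. They became 32 without both scWAT arrays high in muscle transcripts and 0 without both Lr11-/- scWAT arrays at the brown adipocyte marker level of BAT, both chosen after the data were seen, and ran from 0 to 24 with each array left out. The cause was not tested. Uncalled values in BAT that changed sign were Hp (0.03) at -0.024 with quantile normalization, -0.021 with no scaling, -0.035 in the second series, -0.047 with array weights and -0.11 to 0.19 with an array left out; Saa2 (-0.49) at 0.030 with normexp, 0.38 in the second series and -0.92 to 0.30 with an array left out; and Lcn2 (0.11) at -0.029 to 0.24 with an array left out. Normexp on mean signals was not run, as the files used here hold no such column. No paired analysis was possible because the labels carry no replicate numbers. The numbers used here follow accession order, and the array series and the slide were used as blocks instead.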

Other observations

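The fibrinogen genes Fgb and Fgg, named after their values were seen, were not well above background on most arrays. Fgb, the beta chain, was at -0.15 on Lr11-/- scWAT replicate 1, where Ltf was also highest, and Fgg, the gamma chain, was at -0.49 there. Both were left out of the tests because no group had them well above background on all of its arrays.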
